A study of Isoetes sinensis with 3 samples.

Results

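The genes described here are those of the quillwort *Isoetes sinensis* that were annotated on unplaced scaffolds, taken as every gene feature whose sequence name is not Chr1 to Chr22. They numbered 3240 of 57303 genes (5.65%) and lay on 689 scaffolds, against 54063 genes on the 22 pseudochromosomes. The scaffolds were split by their number of genes: 36 scaffolds with 20 or more genes held 1746 genes (53.9%), and 653 scaffolds with fewer held 1494 (46.1%). The study labels 3 libraries of harvested plants, 1 each from root, shoot and sporophyte, with no drug or stress treatment, time point or replicate. All 3 tissues share 1 deposited annotation, which gives positions only, so no tissues were compared and every value below is a description. Each SD was taken over the 22 pseudochromosomes, except where stated otherwise.

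*Isoetes* is a living genus of the lycophytes, an early-branching lineage of vascular plants. In a genome assembly, contigs are built from overlapping reads and then ordered into pseudochromosomes by Hi-C, which records which stretches of DNA lie close together in the nucleus. A contig or scaffold that this step does not assign stays outside the pseudochromosomes and is called unplaced. A gene model in an annotation consists of exons, the introns between them, the coding sequence (CDS) and, where evidence reaches past the CDS, untranslated regions (UTRs). The identifiers in the annotation carry no gene names, so the genes are described by their structure.

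Gene number per scaffold was very uneven. Of the 689 scaffolds, 348 (50.5%) carried a lone gene and together held 10.7% of the unplaced genes. A further 158 scaffolds carried 2 genes and 54 carried 3. The median was 1 gene and the mean 4.70, whereas 31 scaffolds held 50% of all unplaced genes. The 10 scaffolds with most genes held 921 genes (28.4%): Scaffold3435 with 243, Scaffold3597 with 85, Scaffold3445 with 84, Scaffold3697 with 81, Scaffold3433 and Scaffold3709 with 78 each, Scaffold3536 and Scaffold3538 with 70 each, Scaffold3719 with 67 and Scaffold3544 with 65. Just below the limit of 20 genes lay 2 scaffolds with 18 genes, and just above it 2 scaffolds with 20.

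Scaffolds with many genes had high numbers in their names. All 36 scaffolds with 20 or more genes were numbered from 3433 to 3719. The 551 gene-bearing scaffolds numbered below 3433 held 945 genes, at most 8 each, and their last gene ended at a median of 17791 bp. The 138 scaffolds numbered 3433 or above held 2295 genes. How the assembly assigned these numbers is not given in the sources used here.

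**Figure D1:**
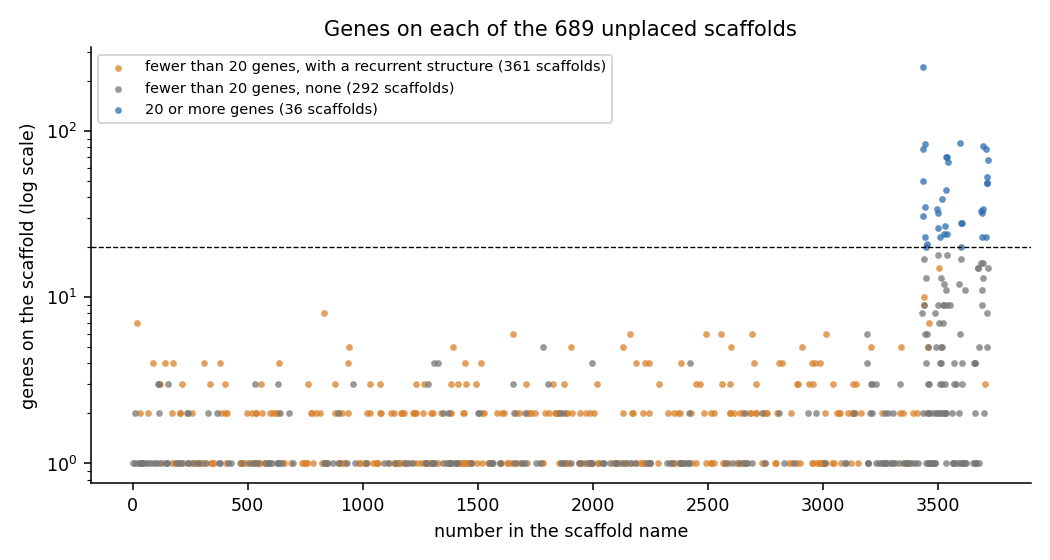
Genes on each unplaced scaffold (vertical axis, log scale) against the number in the scaffold's name. Each point is 1 scaffold, the dashed line marks 20 genes, and colours give the 36 scaffolds with 20 or more genes, the 361 smaller scaffolds with a recurrent structure (defined in the text) and the other 292. All scaffolds with 20 or more genes lie at numbers 3433 to 3719.

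Scaffolds with 20 or more genes were spaced like the pseudochromosomes. They held 28.8 genes per Mb, against 28.2 over all pseudochromosomes (SD 1.11), with length counted from the first base to the end of the last gene because the annotation gives no sequence lengths. The median gap between neighbouring genes was 20474 bp, against 21280 bp (SD 769 bp), slightly more than 1 SD apart. Gaps over 100 kb made up 5.38% of the gaps on these scaffolds and 5.08% on the pseudochromosomes. Neighbouring genes were on the same strand in 53.5% of 1710 pairs, against 51.9% (SD 0.916).

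On scaffolds with fewer genes the measured gaps were shorter. A gap cannot be longer than its scaffold, and the last gene of these scaffolds ended at a median of 20796 bp, so scaffold length and spacing cannot be told apart here. Their 841 neighbouring pairs had a median gap of 4410 bp, and 31.6% of the gaps were under 1 kb, against 13.0% on scaffolds with 20 or more genes and 11.5% on the pseudochromosomes. The same strand was shared by 62.5% of their neighbours. Gene density came to 51.1 genes per Mb, but a length measured to the last gene is a lower bound that counts for more on a short scaffold. The median gap was 1450 bp on scaffolds with 2 to 4 genes and 12827 bp on those with 5 to 19. Above that it was alike, at 20534 bp for 20 to 49 genes and 20408 bp for 50 or more. Small scaffolds numbered 3433 or above had a median gap of 19362 bp and 30.4 genes per Mb, close to the larger class.

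The classes also differed in exon number. Genes on scaffolds with 20 or more genes had 4.69 exons on average, within 1 SD of the 4.84 of pseudochromosome genes (SD 0.166). Genes on the smaller scaffolds had 3.08 exons, lower by 1.61 exons than the larger class. The lowest pseudochromosome had 4.45 and the highest 5.08. Genes of 1 exon made up 21.2% of the larger class and 39.4% of the smaller, against 19.9% on the pseudochromosomes (SD 1.30). Genes of 10 or more exons made up 10.8% and 5.35%, against 12.6%. Without Scaffold3435, the larger class had 4.83 exons per gene and 20.2% genes of 1 exon.

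**Figure D2:**
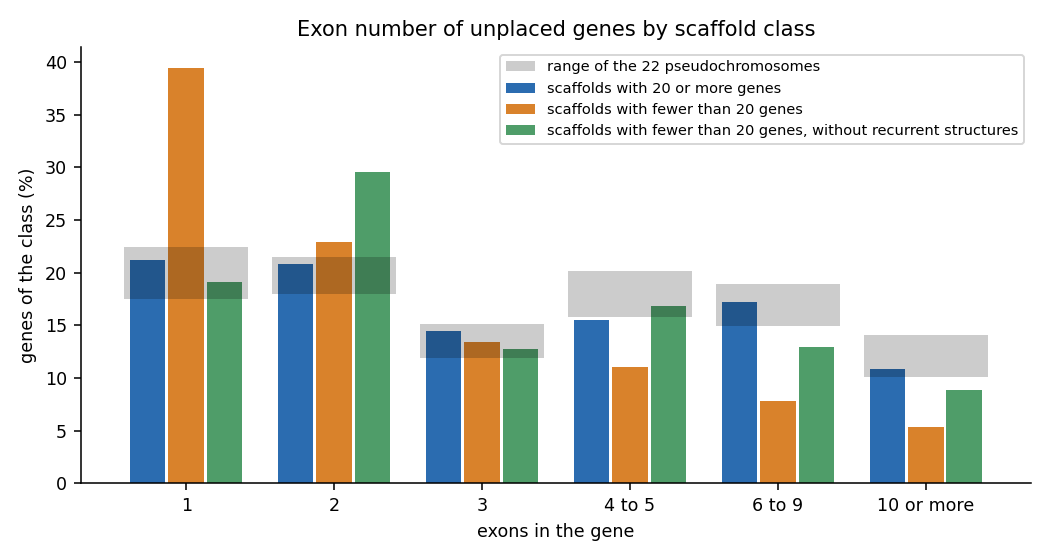
Share of the genes of each scaffold class (vertical axis, %) by number of exons. Bars give scaffolds with 20 or more genes, scaffolds with fewer, and the latter without genes of recurrent structure, and grey bands give the lowest to highest of the 22 pseudochromosomes. Genes of 1 exon reach 39.4% in the smaller class and 19.1% once recurrent structures are left out, while genes of 2 exons then reach 29.5%.

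Single scaffolds of the larger class varied more than single pseudochromosomes did, and held 20 to 243 genes each against 2075 to 2815. Mean exon number ran from 2.74 on Scaffold3444 (23 genes) to 7.26 on Scaffold3510 (23 genes), with an SD of 1.08 over the 36 scaffolds. The same scaffolds had the highest and lowest share of genes of 1 exon, 39.1% (9 genes) on Scaffold3444 and 4.35% (1 gene) on Scaffold3510. Of the 36 scaffolds, 15 lay below and 13 above the range of the pseudochromosomes for exon number. Gene density was lowest on Scaffold3530, with 19.7 genes per Mb, and highest on Scaffold3451, with 65.9 genes per Mb over 0.319 Mb.

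Gene length differed between the classes, while mean CDS length did not beyond the spread among pseudochromosomes. The mean CDS was 1064 bp on scaffolds with 20 or more genes and 1044 bp on the smaller ones, 20.3 bp apart, against 1101 bp on the pseudochromosomes (SD 26.2 bp). Median CDS length did differ, at 801 bp and 684 bp, against 861 bp (SD 27.9 bp). Mean gene length, introns included, was 3152 bp and 1973 bp, against 3057 bp (SD 110.4 bp). Introns had medians of 104 bp and 107 bp, against 104 bp. Their means of 498 bp and 388 bp lay on either side of the 425 bp on the pseudochromosomes (SD 30.5 bp). The higher mean rested in large part on 1 model, and without it the larger class had a mean intron of 446 bp.

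That model was evm.TU.Scaffold3535.43, the longest unplaced gene and the one with the longest intron. It lay on the minus strand of Scaffold3535 from 445688 to 781198 and spanned 336 kb with 2 exons. Its CDS measured 369 bp, its intron took 334 kb, and 6 other genes lay inside it. The unplaced gene with most exons was evm.TU.Scaffold3597.36 (Scaffold3597, 645567 to 695929, plus strand), with 51 exons that include 5733 bp of CDS. The longest unplaced CDS, 8112 bp in 30 exons, belonged to evm.TU.Scaffold3713.90 (Scaffold3713, 1814854 to 1829054, minus strand). All 3 genes lay on scaffolds with 20 or more genes.

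UTRs were less often annotated on unplaced scaffolds, most of all on small ones. A UTR was present in 44.0% of genes (769 genes) on scaffolds with 20 or more genes and in 20.3% (303 genes) on the others, against 53.1% on the pseudochromosomes (SD 2.42). The share was 12.1% on scaffolds with 1 gene, 10.1% with 2 to 4, 37.0% with 5 to 19, 42.9% with 20 to 49 and 44.8% with 50 or more. Among the 36 scaffolds of the larger class it ran from 17.4% on Scaffold3510 (4 of 23 genes) to 67.9% on Scaffold3599 (19 of 28). Where UTRs were present, the median 5′ UTR was alike, at 152 bp and 153 bp in the larger and smaller class against 149 bp (SD 7.07 bp). The median 3′ UTR was 320 bp and 295 bp against 334 bp (SD 8.46 bp), shorter by more than 1 SD in both classes.

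The share with a UTR moved with the source field of the gene models. In this annotation a model either names Evidence Modeler as its source, and then has no UTR, or names none. Models that name it made up 44.4% of pseudochromosome genes, 52.2% of genes on scaffolds with 20 or more genes and 78.8% on the smaller scaffolds. Within the models that name none, a UTR was present in 95.5%, 92.1% and 95.6%. Within those models the smaller class also had more exons per gene than the larger, 6.09 (317 genes) against 5.80 (835 genes), the reverse of the order over all genes. The part of the source field in the class differences was not tested further.

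Incomplete models were more frequent among the outermost genes of a sequence, most of all on small scaffolds. A CDS that starts in a phase other than 0 begins inside a codon, and this was the case in 80 genes (5.35%) on scaffolds with fewer than 20 genes, 19 (1.09%) on the larger ones and 0.812% of pseudochromosome genes. On scaffolds with a lone gene it was the case in 48 genes (13.8%). Among small scaffolds, 79 of the 958 outermost genes started this way (8.25%) but only 1 of the 536 inner ones. On the larger scaffolds the counts were 4 of 72 outermost genes and 15 of 1674 inner ones. On the pseudochromosomes they were 2 of 44 and 437 of 54019. A CDS length that is no multiple of 3 followed the same order, with 11.5% of outermost and 0.560% of inner genes on small scaffolds. These shares were 9.72% and 1.31% on the larger scaffolds, and 9.09% and 1.47% on the pseudochromosomes.

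Small scaffolds repeated a short list of gene structures. A structure is the ordered list of CDS exon lengths of a gene, from its first CDS exon to its last. A structure is called recurrent here where at least 10 genes on scaffolds with fewer than 20 genes hold exactly that list, a limit chosen after the data had been seen. There were 20 recurrent structures, and they covered 590 genes, or 39.5% of the genes on small scaffolds. They lay on 361 of the 653 small scaffolds (55.3%), and 279 of these carried nothing else. Of the 361 scaffolds, 354 were numbered below 3433. On the larger scaffolds, 23 genes held one of these lists, and on the pseudochromosomes 494 genes did (0.914%).

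The 8 recurrent structures with 2 or more CDS exons were held by 172 unplaced genes and 3 pseudochromosome genes. These counts are partly set by the rule, which looks for repeats on small scaffolds. In a count added after seeing the data, over all genes without regard to place, 10 structures of 2 or more CDS exons were held by at least 10 genes. They were these 8 and 2 others, and the 2 others were held by 22 pseudochromosome genes and 0 unplaced genes. The most frequent consisted of CDS exons of 40, 672 and 1352 bp and was held by 57 unplaced genes on 57 scaffolds. Its introns measured 333 and 34 bp in all 57. It was also held by 2 pseudochromosome genes with the same introns, evm.TU.Chr1.1922 (chromosome 1, 32863323 to 32865753) and evm.TU.Chr22.4925 (chromosome 22, 93872576 to 93875006). The pair of CDS exons of 727 and 554 bp (intron 55 bp) was held by 31 unplaced genes, and the trio of 385, 156 and 587 bp (introns 420 and 141 bp) by 29. No pseudochromosome gene held either list. The genes named in this paragraph and the next were chosen after their values had been seen, apart from those named by rule.

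The 12 recurrent structures with 1 CDS exon must be read against their counts on the pseudochromosomes, since lists of a lone length coincide more easily. They were held by 441 unplaced and 491 pseudochromosome genes. The unplaced count is again partly set by the rule, which picked these lengths for their repeats on small scaffolds. The count over all genes given above did not cover structures of 1 CDS exon. A CDS of 1062 bp was held by 55 unplaced and 11 pseudochromosome genes, and a CDS of 477 bp by 67 and 58. A CDS of 402 bp was held by 12 and 60. Of the 590 genes on small scaffolds with a recurrent structure, 99.2% named Evidence Modeler as their source and 5 had a UTR.

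**Figure D3:**
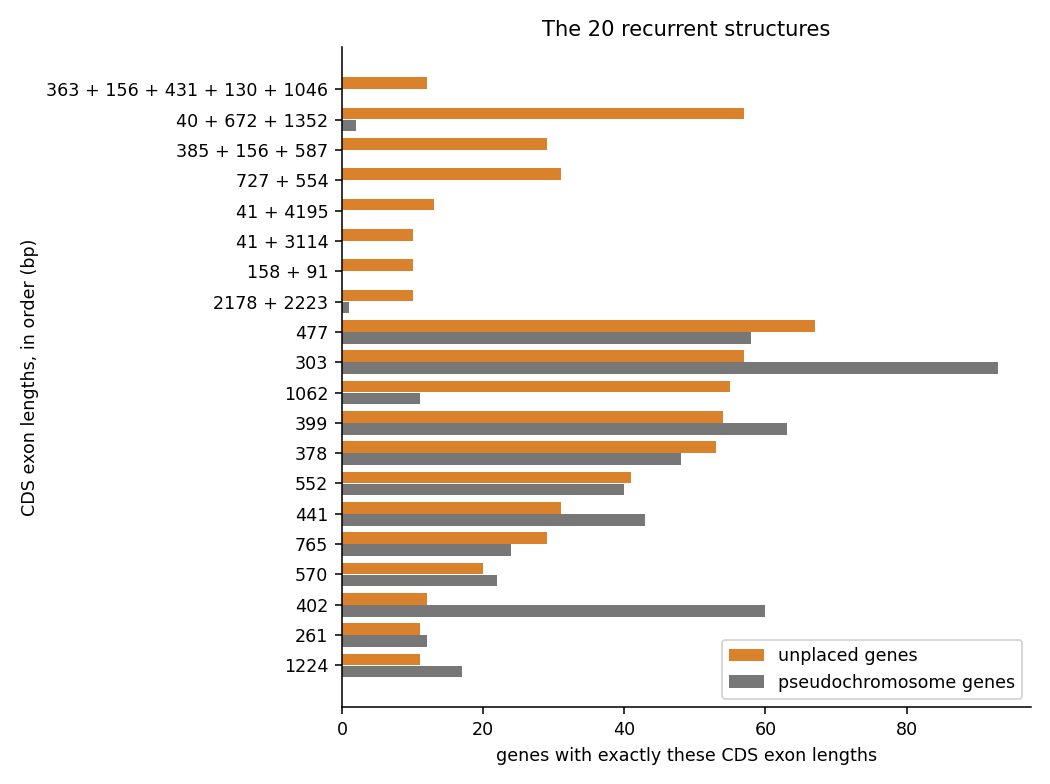
Number of genes (horizontal axis) that hold each of the 20 recurrent structures, given by the ordered CDS exon lengths in bp. Orange bars count unplaced genes and grey bars pseudochromosome genes. The 8 structures with several CDS exons have at most 2 pseudochromosome genes each, while the 12 with a lone CDS exon have 11 to 93.

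Many recurrent structures also stood next to each other in the same order and at the same distance. On unplaced scaffolds, 223 pairs of neighbouring genes were both of recurrent structure. Of these, 198 belonged to 19 arrangements seen at least 3 times, and the other 25 pairs did not. In 197 of the 198 pairs the gap was within 5 bp of the most common gap of its arrangement. On the pseudochromosomes 15 neighbouring pairs were both of recurrent structure, 2 of them in these arrangements and 1 with the same gap. The arrangement seen most often was a 399-bp CDS followed by a 477-bp CDS, with a gap of 578 bp in 33 of 34 pairs and 579 bp in the other. A 378-bp CDS was followed by a 765-bp CDS after 33 bp in all 28 pairs, and by the 727 and 554 bp structure after 33 bp in all 15 pairs. The structure of 385, 156 and 587 bp was followed by the 1062-bp CDS after 508 bp in all 9 pairs.

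The 552-bp CDS had most such neighbours and shows the arrangement over several genes. It lay on 39 small scaffolds, 38 of which carried another gene. Along its strand, a 378-bp CDS began 3195 bp upstream on 24 scaffolds, to within 10 bp on all 24. Next came either the 765-bp CDS, on 13 scaffolds, or the 727 and 554 bp structure, on 19. Both began 2784 bp upstream. This stretch carried a gene model on 36 scaffolds, of 6 different structures, and 4 scaffolds had another model there than these. Downstream, a 570-bp CDS began 694 bp from the start of the 552-bp CDS on 17 scaffolds and a 303-bp CDS 1377 bp from it on 14. A short gene with a first CDS exon of 158 bp began 2044 bp from it, with a second CDS exon of 91 bp on 10 scaffolds, 106 bp on 5 and 51 bp on 5. Each of these genes was on the strand of the 552-bp CDS and within 10 bp of the distance given on every scaffold counted.

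**Figure D4:**
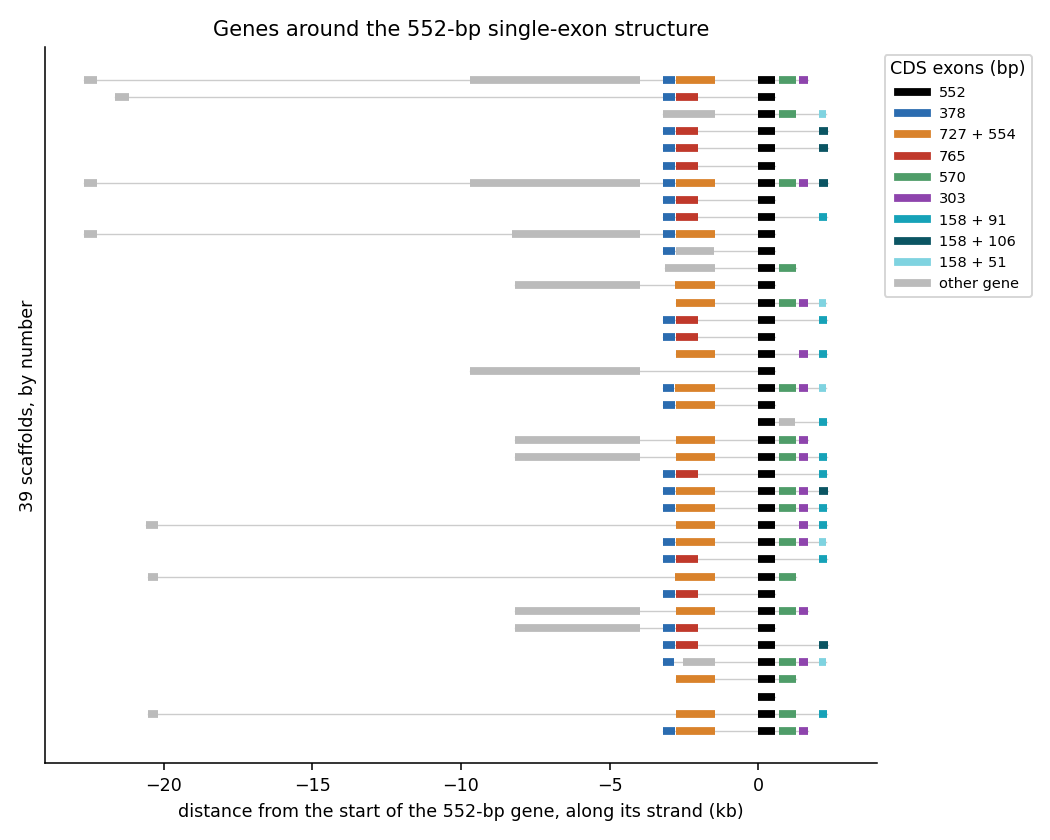
Genes on the 39 small scaffolds with the 552-bp CDS, 1 scaffold per line in order of number. The horizontal axis is the distance in kb from the start of the 552-bp CDS along its strand, coloured blocks are genes of the listed CDS exon lengths, grey blocks are other genes and thin lines join the genes of a scaffold. The 378-bp CDS stands 3193 to 3197 bp upstream on 24 scaffolds.

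The gene content of whole scaffolds was also repeated, compared without order or distance. The content of 314 small scaffolds, taken as the list of its structures, occurred on at least 1 other small scaffold, in 45 different contents. Contents of 2 or more genes accounted for 22 of these and for 100 scaffolds, while on the other 214 the content was a lone gene. On 25 scaffolds a 399-bp and a 477-bp CDS were the only genes, 40 scaffolds carried just the 40, 672 and 1352 bp structure, and another 40 just the 1062-bp CDS.

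Without the recurrent structures, the remaining 904 genes on small scaffolds stood closer to the larger class. They had 4.11 exons per gene, 19.1% genes of 1 exon and a UTR in 33.0%. Their median gap was 14825 bp, with 53.4% of pairs on the same strand. These pairs were formed after the removal, so some span a removed gene and have a longer gap for it. The fall in the share of 1 exon follows in part from the definition, since 12 of the 20 structures have 1 CDS exon. The rise in exon number and UTR share likewise follows in part from the choice of lists. The removed genes on small scaffolds had 1.51 exons on average and a UTR in 0.847%. Removing the same lists left 19.3% genes of 1 exon and 4.88 exons per gene on the pseudochromosomes. With limits of 5 and 20 genes for a recurrent structure, 19.0% and 21.8% of the remaining genes on small scaffolds had 1 exon. Mean exon number and the share with a UTR remained outside the range of the pseudochromosomes, 4.45 to 5.08 exons and 46.4% to 56.8%. With recurrent structures included, small scaffolds numbered 3433 or above (549 genes) had 4.52 exons per gene, 18.8% genes of 1 exon and a UTR in 43.9%. Those with lower numbers had 2.24 exons, 51.4% and 6.56%. Without recurrent structures, the 364 genes left on the lower-numbered scaffolds had 3.42 exons, 21.2% and 16.2%. In exon number and UTR share they remained well below the larger class.

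Longer structures were compared over genes with at least 5 CDS exons, by the lengths of all CDS exons except the first and last. Of 861 unplaced genes of this kind, 334 (38.8%) shared the list with a pseudochromosome gene and 88 (10.2%) with another unplaced gene. On scaffolds with 20 or more genes, 40.3% of 590 genes shared it with a pseudochromosome gene and 5.59% with an unplaced gene. On the smaller scaffolds these shares were 35.4% and 20.3% of 271 genes. For comparison, 51.4% of the 18934 pseudochromosome genes of this kind shared the list with another pseudochromosome gene. Of the 55 genes on the smaller scaffolds that shared their list with an unplaced gene, 24 held the same list, described next. No pseudochromosome gene held that list, so these 24 genes lower the share of 35.4% and raise the share of 20.3%. The shares without these genes were not computed.

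The list held by most unplaced genes had internal CDS exons of 156, 431 and 130 bp. It occurred in 24 genes on 24 scaffolds, all with fewer than 20 genes, and in no pseudochromosome gene. The 4 introns measured 420, 141, 58 and 492 bp in 23 of the 24. The first CDS exon was 363 bp in 13 of these genes and 385 bp in 10, and 13 genes started in a phase other than 0. The first introns, 420 and 141 bp, were shared with the trio of 385, 156 and 587 bp, and in all 53 unplaced genes on 53 scaffolds and no pseudochromosome gene had these introns.

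Few pairs of scaffolds had several of these longer structures in common, and 7 pairs shared at least 2. Scaffold3497 (34 genes) and Scaffold3676 (15 genes) shared most, 4 structures. Their matched genes with most CDS exons, evm.TU.Scaffold3497.40 (937065 to 939295) and evm.TU.Scaffold3676.13 (234596 to 237483), both coded for 1005 bp in 10 CDS exons, and 5 of 7 compared introns were identical in length. The largest set of neighbouring genes with 1 structure lay on Scaffold3192, where evm.TU.Scaffold3192.2, evm.TU.Scaffold3192.3 and evm.TU.Scaffold3192.4 followed each other on the minus strand between 11618 and 22286, each with 5 CDS exons, a CDS of 567 bp and a longest intron of 911 bp.

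Structures shared with the pseudochromosomes pointed to 3 pairs of chromosomes. Neighbouring numbers form the pairs here, 1 with 2 through 21 with 22. Counting only structures held by exactly 1 unplaced gene and by 1 or 2 pseudochromosome genes, 291 unplaced genes had a match, and 279 of them matched within 1 pair. Of the 279, 109 matched chromosomes 21 and 22, 76 chromosomes 1 and 2, and 64 chromosomes 19 and 20, together 249 (89.2%), whereas these 6 chromosomes carry 27.7% of the pseudochromosome genes. The other 8 pairs had 1 to 6 matches each. The share on the 3 pairs was 97.0% of 198 genes on scaffolds with 20 or more genes and 70.4% of 81 on the smaller ones. A matched structure is a likeness of exon lengths, and sequence was not compared.

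Matches of a scaffold lay in order along a chromosome. On 27 scaffolds, 22 of them with 20 or more genes, at least 3 genes matched the same chromosome, giving 44 groups of a scaffold and a chromosome. Along these groups, 214 of 226 steps from a matched gene to the next went in the group's leading direction, and 33 groups had all steps in 1 direction. The leading direction was taken from the same steps, so it holds at least as many as the other by definition. A gene matched on both chromosomes of a pair could enter a group on each, so the steps are not all separate. Of the groups, 42 spanned at most 10 Mb, and in these the span on the scaffold was a median of 0.949 times the span on the chromosome (range 0.124 to 1.68). The number of annotated genes within both spans had a median ratio of 1 (range 0.120 to 1.57).

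Scaffold3435 had the most matches to 1 chromosome. Of its 243 genes, 18 matched chromosome 1 between 78.1 and 84.5 Mb, with 17 of 18 steps in descending order, counting a gene with 2 matches at both. It also had 17 genes matched to chromosome 2 between 74.3 and 80.8 Mb, all 16 steps descending. The match with most CDS exons paired evm.TU.Scaffold3435.180 (3009357 to 3015469, minus strand) with evm.TU.Chr1.4275 (chromosome 1, 81296186 to 81302577, plus strand). Both coded for 3081 bp in 17 CDS exons, and 11 of 14 compared introns had the same length. Scaffold3445 had 17 genes matched to chromosome 2 between 88.2 and 91.1 Mb, all 16 steps ascending, and 3 matched to chromosome 1.

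Among the 27 scaffolds with such groups, most lay in the order of the chromosome within runs of rising numbers. Sorted by number, the 27 scaffolds formed 5 runs in which the leading chromosome pair stayed the same, and positions started anew between runs on the same pair. Scaffolds 3433 to 3445 (7 scaffolds, 531 genes) matched chromosomes 1 and 2, and their median positions rose at each of 6 steps on both, from 75.7 to 92.0 Mb on chromosome 1 and from 68.1 to 89.7 Mb on chromosome 2. Scaffolds 3502 to 3544 (6 scaffolds, 282 genes) matched chromosomes 21 and 22, rising at all 5 steps on both, from 13.8 to 42.1 Mb on chromosome 22. On chromosome 21, 3 of these 6 positions, both end points included, rest on 1 gene each. Scaffolds 3590 and 3597 matched chromosome 19 at 76.5 and 78.8 Mb. Scaffolds 3691 to 3709 (6 scaffolds, 250 genes) returned to chromosomes 21 and 22, at 2.07 to 10.3 Mb on chromosome 21, with 4 of 5 steps rising there. On chromosome 22, 2 of 5 steps rose and 3 fell, and the position of Scaffold3695 rests on 1 gene. Scaffolds 3710 to 3719 (6 scaffolds, 256 genes) matched chromosomes 19 and 20, rising at all 5 steps on both, from 43.5 to 52.1 Mb on chromosome 19. Within runs, and counting both chromosomes of a pair, 39 of 43 steps between scaffolds rose. The 27 scaffolds held 1416 genes (43.7% of the unplaced genes). Scaffolds without at least 3 genes matched to the same chromosome were left out, and not all of those numbered inside a run led to its pair. Scaffold3439 (17 genes) had 2 matches, both on chromosomes 15 and 16, and Scaffold3526 (9 genes) had 1, on chromosomes 11 and 12. The others with a match led to the pair of the run.

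**Figure D5:**
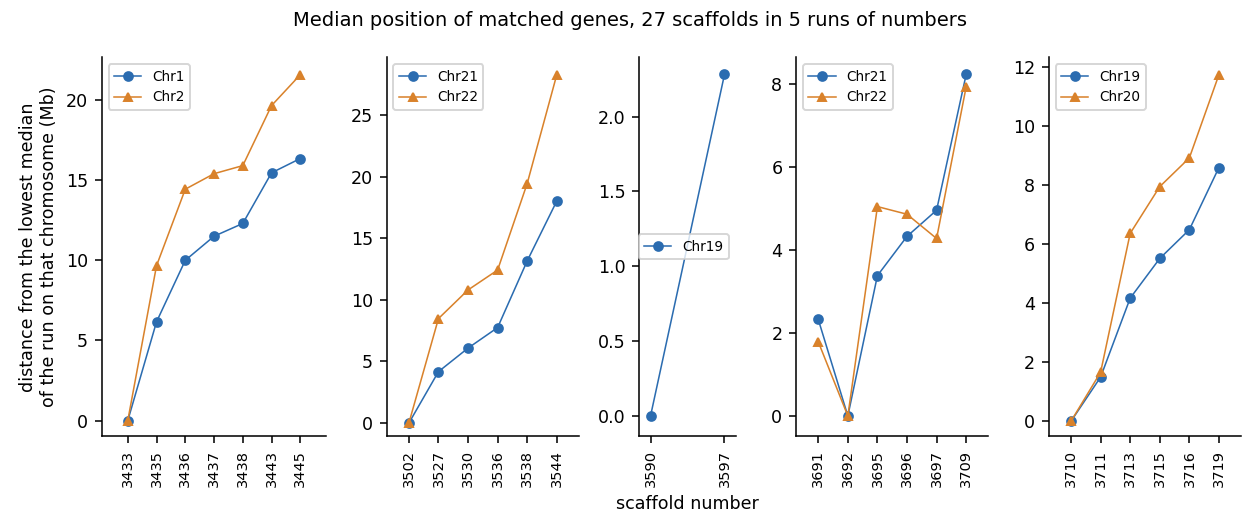
Median position of the matched genes of each scaffold along the odd (circles) and even (triangles) chromosome of its pair, as distance in Mb from the lowest median of the run, for 27 scaffolds in order of number. Each panel is 1 run of numbers with its own vertical scale. Within runs, positions rise with the scaffold number at 39 of 43 steps over both chromosomes, and the exceptions lie in the run from 3691 to 3709.

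Where both chromosomes of a pair held the structure of an unplaced gene, its introns over all such genes were about as often identical to either. For 102 genes of the 291 the structure was held by 1 gene on each chromosome of a pair, which allowed 651 introns to be compared between 3 genes. The unplaced gene had the same intron length as the odd-numbered chromosome in 67.3% and as the even-numbered in 69.1%, while both chromosomes had the same length in 67.3%. Of the 102 genes, 26 had more introns in common with the odd chromosome, 28 with the even, and 48 equally many. Single scaffolds could lean to 1 chromosome. On Scaffold3436, named after its values were seen, evm.TU.Scaffold3436.25 shared all 13 introns with chromosome 2 and 5 with chromosome 1. By number of matches, Scaffold3597 had 12 on chromosome 19 and 0 on chromosome 20, and Scaffold3445 had 3 on chromosome 1 and 17 on chromosome 2. In introns Scaffold3445 did not lean, with 78.9% of 38 identical on chromosome 1 and 79.9% of 154 on chromosome 2. Over the 3881 matched gene pairs between paired pseudochromosomes, 70.4% of introns were identical (SD 2.75 over 11 pairs). Another 174 unplaced genes matched a lone pseudochromosome gene, with 76.8% of 1377 introns identical.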

How the data were processed

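RNA of root, shoot and sporophyte (1 library each) was sequenced. The authors assembled contigs with Hifiasm, grouped them with ALLHiC and joined Augustus, Genscan, GeneWise and PASA models with Evidence Modeler. FastQC, HISAT2 and Cufflinks are listed, without roles, in the submitters' processing notes. The deposited GFF3 annotation holds starts and ends in bp and CDS phases on the study's own assembly, with 1 mRNA per gene, so no read counts or depths entered.

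Exons, CDS segments and UTRs were read per gene with Python 3.11.15, NumPy 2.4.6 and pandas 2.3.3, and figures were drawn with Matplotlib 3.10.9. Introns are the gaps between neighbouring exons. Structures were compared by exact CDS exon lengths, from 5 CDS exons on for internal lists. Counts of genes, exons, introns, UTRs, recurrent structures, repeated gaps and structure matches were tested on a simulated annotation. Phases, the order of matches and the runs were not tested there. There being no replicates, no test was made. Members, lists and comparisons were chosen with earlier results of these data known. The genes and scaffolds named by rule are the 10 scaffolds with most genes, those highest and lowest in density, exon number, share of 1 exon and share with a UTR, the longest gene, CDS and intron, the gene with most exons, and the leading genes of each structure comparison. Alternatives varied the class limit of 20 genes (10 or 50), weighting, gene models (CDS a multiple of 3 and at least 150 bp), source field, median and structure rules. Sequence, expression and gene functions were not analysed here.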

Additional observations from a re-analysis of the deposited data

How the results depend on the processing

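No paired analysis was possible because the 3 tissues have a lone library apiece and share 1 annotation without values of their own. Of 99 alternatives, 82 were planned with earlier results known and 17 were added after seeing the data. Of these 99, 36 stayed within 1 SD of the pseudochromosomes (counts within 1.5 times), and 7 of 50 alternatives for a class difference reversed its sign. The cause of these moves was not tested. Differences are given as scaffolds with 20 or more genes minus the others. At a class limit of 10 genes they were 1.95 exons, -23.2 percentage points for genes of 1 exon, 74.5 bp for mean introns and 28.7 points for genes with a UTR. At a limit of 50 they were 1.14 exons, -11.0 points, 763.6 bp for gene length, 79.3 bp for CDS length, 22.3 bp for introns and 17.2 points. With scaffolds weighted equally they were 1.96 exons, -22.7 points, -80.2 bp for CDS length (reversed), 61.5 bp for introns and 30.8 points. Within models that name a source they were 1.41 exons, -23.7 points, 576 bp for gene length, -209 bp for CDS length (reversed) and 0 points for UTRs, and the unplaced genes as a whole had 2.89 exons, 36.0% genes of 1 exon, 1760.4 bp gene length, 906 bp CDS length and 0% with a UTR. Within models that name none they were -0.29 exons, 5.76 points and -3.49 points for UTRs (all reversed), 622 bp for gene length and 148 bp for CDS length, and the unplaced genes had 5.88 exons, 18.1%, 4145 bp, 1325 bp and 93.1%. Without recurrent structures (added) they were 0.631 exons, 1.0 points for genes of 1 exon and -13.2 bp for CDS length (both reversed), 666 bp for gene length and 11.2 points for UTRs, and the unplaced genes had 4.53 exons, 19.8%, 2956 bp gene length, 40.3% with a UTR and 53.1% of neighbours on the same strand, against 56.5%. Medians over the unplaced genes were 2 exons, 1544 bp gene length, 762 bp CDS length and 105 bp introns. The gene model filter gave -19.9 points for genes of 1 exon and 72.8 bp for CDS length, and CDS segments in place of exons gave 31.7% genes of 1 exon. Without Scaffold3435 the gene length difference was 1331 bp, and without the longest gene (added) it was 989 bp, with 58.6 bp for introns. With at least 3 CDS exons, 397 unplaced genes shared a structure with another unplaced gene, 839 with a pseudochromosome gene, and 16 scaffold pairs shared at least 2. With at least 8, these counts were 32, 194 and 2. Requiring identical introns too left 56 and 116. Scaffold lengths and sequence were not at hand, so densities are upper bounds and gene likeness rests on exon and intron lengths alone.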

Other observations

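Identifier numbers were used unevenly. Each identifier ends in a number, some numbers are left out, and the numbers used came to 52.0% of the highest numbers summed over scaffolds with 20 or more genes, 63.0% over the smaller scaffolds and 53.9% over the pseudochromosomes. Overlapping neighbours were rare, with 8 pairs on scaffolds with 20 or more genes (0.468%) and 7 on the others (0.832%), against 0.751% on the pseudochromosomes. Of the unplaced introns, 15 exceeded 20 kb, and they lay on 15 scaffolds. Identifiers joined from several gene identifiers occurred in 21 unplaced genes, 12 of them on scaffolds with 20 or more genes.

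Of the 36 scaffolds with 20 or more genes, 5 had no structure matched to a pseudochromosome under the rule used, and 31 had at least 1. In 25 of the 31, all genes matched within a chromosome pair pointed to the same pair. This holds by definition for a scaffold with 1 match, as on Scaffold3535, Scaffold3539 and Scaffold3599. In the 42 groups of matched genes that spanned at most 10 Mb, 205 of 247 matched genes had the strand that the order of the group gives.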
